A study of Homo sapiens with 12 samples.

Results

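A total of 5290 m6A peaks that the deposited annotation places in a 3′ UTR were analysed, of 14586 peaks in 4 lists. The lists come from MeRIP-seq of HSC3 and CAL33 cells with and without rapamycin. Members were chosen by their annotated class alone, and no measured value entered the choice. The 3′ UTR peaks numbered 1390 of 3930 in HSC3 control cells, 1412 of 3952 in HSC3 cells with rapamycin, 1343 of 3625 in CAL33 control cells and 1145 of 3079 in CAL33 cells with rapamycin. They lay on 2908 genes and joined into 3818 separate regions when overlapping peaks were merged across lists.

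N6-methyladenosine (m6A) is written on mRNA by a methyltransferase complex built around METTL3 and METTL14, removed by the demethylases FTO and ALKBH5, and read by proteins of the YTH and IGF2BP families. In mammalian mRNA it is known to be enriched near the stop codon and in the 3′ UTR, the untranslated part that also holds binding sites for microRNAs and RNA-binding proteins. Marks in this part of the message are best known for effects on mRNA decay and translation. Rapamycin inhibits the kinase complex mTORC1 and is widely used to induce autophagy.

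HSC3 and CAL33 are established lines of human oral squamous cell carcinoma (OSCC). For MeRIP-seq, cells received 100 nM rapamycin for 3 days or none, and each combination of line and treatment was represented by 1 immunoprecipitated library and 1 input, so that no m6A value has a replicate. Each peak carries a fold enrichment, the ratio of immunoprecipitated RNA to input. RNA-seq comprised 2 libraries with 100 nM rapamycin and 2 control libraries, with totals between 18492273 and 23763098 counts. The labels give HSC3 for both rapamycin libraries of the RNA-seq and CAL33 for both controls, whereas in MeRIP-seq number 1 is HSC3 and number 2 is CAL33. If the RNA-seq labels hold, treatment and cell line cannot be told apart there. The libraries themselves paired by number, since log2 CPM (counts scaled to the library total) correlated across genes at r = 0.97 and 0.96 between same-numbered libraries and at 0.76 to 0.81 between the others. RNA-seq results are therefore given without and with the replicate number as a block. The labelled cell type was checked with marker lists. The 13 squamous epithelial markers summed to between 3549 and 5877 CPM per library, and none of the 13 was at 0 in every library. The 6 fibroblast markers summed to between 8.75 and 48.0 CPM with 3 at 0 in every library, the 5 immune markers to between 0.17 and 0.64 CPM with 2 at 0, and the 4 endothelial markers to between 1.46 and 44.1 CPM with 1 at 0.

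The 3′ UTR held a steady share of the calls. It took 35.4% of the peaks in HSC3 control cells (95% Wilson interval 33.9 to 36.9), 35.7% with rapamycin (34.2 to 37.2), 37.0% in CAL33 control cells (35.5 to 38.6) and 37.2% with rapamycin (35.5 to 38.9). These intervals cover counting error only, and they overlap between treatments in each line. The coding sequence (CDS) held the largest share in every list, up to 42.6%. In CAL33 the number of 3′ UTR peaks was lower with rapamycin by 198 while the whole list was shorter as well, and in HSC3 it was higher by 22. Median fold enrichment of 3′ UTR peaks was 34.3 in HSC3 control, 35.5 in HSC3 rapamycin, 51.1 in CAL33 control and 37.5 in CAL33 rapamycin. In the same order the CDS medians were 33.6, 32.8, 38.3 and 34.8. The 3′ UTR median was thus the higher in all 4 lists, by 0.03 to 0.42 on the log2 scale (mean 0.17 ± 0.17, SD, n = 4 lists). The exact two-sided sign-flip permutation test gave p = 0.13, which is the smallest value that 4 lists allow. With peaks under a 4-fold enrichment left out, the 3′ UTR median was higher in 3 of 4 lists. The mean was 0.084 without CAL33 control and 0.29 among peaks with a false discovery rate of at most 0.05.

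**Figure D1:**
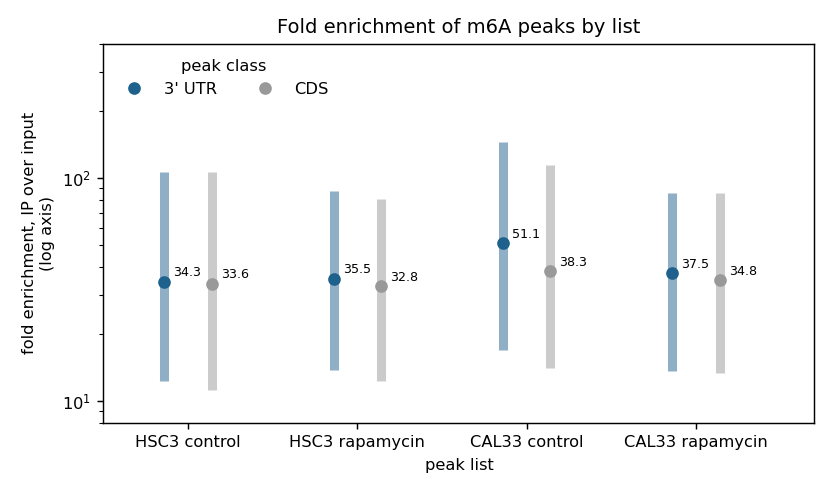
Fold enrichment of immunoprecipitated RNA over input (log axis) for peaks in the 3′ UTR and the CDS in the 4 lists. Points are medians over the peaks of a list and bars span the lower to the upper quartile, which overlap widely between classes in every list. The 3′ UTR median exceeds the CDS median in each list, most in CAL33 control cells (51.1 against 38.3).

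The fold enrichments have a coarse grain that limits how single peaks can be compared. Between 10 and 100, 69.4% of the 3′ UTR peaks of HSC3 control cells lay within 0.1 of a whole multiple of 2.81, where evenly spread values would place 7.13%. The step was 2.74 in HSC3 rapamycin with 71.6% on it, 2.13 in CAL33 control with 65.5% on it, and 2.68 in CAL33 rapamycin with 71.9% on it. CDS peaks lay on the same steps in 60.6% to 68.0% of cases. In the control lists most of these peaks sat at even multiples (90.6% in HSC3 and 87.3% in CAL33), which corresponds to steps of 5.61 and 4.26, while in the rapamycin lists the even multiples held 56.8% and 52.6%. The size of the step thus differed between the lists that are compared. Peaks on a step had weaker p-values than the others, with a median log10 p between -7.05 and -10.8 on the steps and between -27.7 and -38.6 off them.

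Peak length hardly separated the classes. The median exonic length was 210 bp for 3′ UTR peaks in every list and 210 or 211 bp for CDS peaks (mean log2 ratio -0.0034, exact sign-flip permutation p = 0.5). By mean length, 3′ UTR peaks were shorter in 4 of 4 lists, with a mean log2 ratio of -0.03 (exact permutation p = 0.13). Fewer than 1% of 3′ UTR peaks spanned a splice junction, against 1.91% to 2.91% of CDS peaks. A deposited false discovery rate above 0.05 was carried by 5.96% (CAL33 control) to 13.5% (HSC3 control) of the 3′ UTR peaks.

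Within the gene, the peaks sat close to its 3′ end. The centre was a median of 1735 bp upstream of the RefSeq gene end in 3 lists and 1734.5 bp in CAL33 rapamycin, and 33.4% to 34.6% of peaks lay within 1000 bp of that end. Between 14.4% and 15.3% lay more than 5000 bp away. The CDS peaks were a median of 5884 to 7031 bp from the gene end. Between 93.9% and 95.5% of 3′ UTR peaks could be matched to a RefSeq gene by symbol and chromosome. The distance to the stop codon was not analysed here.

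Most genes carried 1 such peak. In each list 11.0% to 12.3% of the genes had more than 1, and between 13.5% and 16.0% had a CDS peak in the same list. Over all lists, 1855 of the 2908 genes had 3′ UTR peaks and no peak of another class, and 893 had a CDS peak in some list as well. Over 99% of the peaks were on protein-coding genes. The gene with the most separate regions was *C22orf46* with 7, of which 0, 4, 3 and 2 peaks were called in HSC3 control, HSC3 rapamycin, CAL33 control and CAL33 rapamycin. The genes that follow, each with 6 regions, were *CDCP1*, which encodes a transmembrane glycoprotein of epithelial cells, *DGCR2*, *FAM84B* and *FOXK1*, a forkhead transcription factor. *FOXK1* had 5, 2, 4 and 3 peaks in the same order. *FAM84B* had 4 and 3 peaks in the HSC3 lists and 1 and 0 in the CAL33 lists.

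Some 3′ UTR peaks could not be assigned to 1 gene. Between 66 and 81 per list (4.67% to 6.20%) overlapped a peak on the opposite strand of the same list, and 43 to 58 of them had exactly the same fold enrichment and p-value as that peak. A further overlap with another peak on the same strand was present for 72 to 113 peaks per list. The strand of these peaks, and with it the gene, is therefore uncertain.

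The question that 4 lists allow is which 3′ UTR regions were called again. In HSC3, 27.1% of control peaks overlapped a rapamycin peak and 26.6% of rapamycin peaks overlapped a control peak, by at least 1 bp on the same strand. In CAL33 the shares were 23.5% and 28.4%. Between the lines, 25.7% of HSC3 control peaks and 26.4% of CAL33 control peaks overlapped a peak of the other line, and with rapamycin 21.5% and 27.3% did. The shares thus ranged from 23.5% to 28.4% between treatments and from 21.5% to 27.3% between lines. CDS peaks were shared more often in all 4 lists. The difference was -3.47 ± 1.13 percentage points between treatments and -3.48 ± 0.85 points between lines (3′ UTR minus CDS, mean ± SD, n = 4 lists), each with an exact sign-flip permutation p of 0.13. Sharing was also counted by gene, as any peak of the same class on the same gene in the other list, with no overlap required. The differences were then -10.1 and -12.3 points.

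Of the 3818 regions with a 3′ UTR peak, 2807 (73.5%) were called in 1 list, 606 in 2, 268 in 3 and 137 (3.59%) in all 4. Among the regions called in 2 lists, 117 joined both HSC3 lists, 100 both CAL33 lists, 116 both controls and 72 both rapamycin lists. The combinations that share neither line nor treatment held 119 (HSC3 rapamycin with CAL33 control) and 82 (HSC3 control with CAL33 rapamycin) regions. By gene, without regard to where in the 3′ UTR the peak was, 1801 genes were called in 1 list, 633 in 2, 318 in 3 and 156 in all 4.

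**Figure D2:**
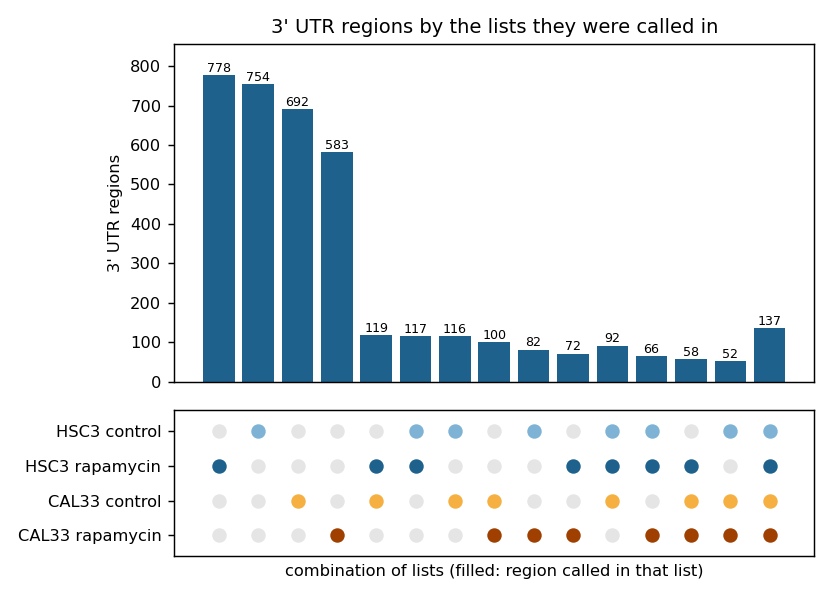
Number of 3′ UTR regions called in each combination of lists, with filled dots marking the lists in which the region had a peak of any class. Regions called in 1 list alone number 583 to 778 per list, while 137 regions were called in all 4.

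Where a gene had a 3′ UTR peak in both lists of a comparison, the peaks overlapped in 70.3% to 71.5% of the genes. In the remainder the nearest peaks were a median of 553.5 to 749 bp apart, so they stood at separate places of the same message. Overlapping 3′ UTR peaks lay close together, with centres a median of 59.5 to 74.5 bp apart. Their strength was much less alike than their position. The fold enrichment differed more than 4-fold in 39.4% to 44.2% of the 322 to 386 overlapping pairs of a comparison, and Spearman's rho across pairs was 0.23 and 0.16 between treatments and 0.21 and 0.13 between lines. These correlations describe peaks that share their libraries and are not replicates. The corresponding rho for CDS peaks ranged from 0.20 to 0.31.

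Recurrent regions differed from the others in p-value and length more than in fold enrichment. In HSC3 control cells the median log10 p was -13.8 for peaks of regions called in 1 list, -19.4 in 2, -36.2 in 3 and -53.1 in 4. In the other lists it went from between -13.9 and -21.3 in 1 list to between -48.2 and -80.9 in 4. Mean length went from 197 to 206 bp in 1 list to 290 to 324 bp in 4. Median fold enrichment went from 33.6 to 44.9 in HSC3 control, from 35.5 to 43.2 in HSC3 rapamycin, from 52.0 to 58.2 in CAL33 control and from 34.8 to 37.5 in CAL33 rapamycin. Longer peaks merge more easily, so length and recurrence are not independent here. Among the peaks with the smallest p-values (the lowest quartile of a list), 43.3% to 50% were shared with the other treatment, against 16.0% to 25.3% in the other quartiles.

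The mRNA level moved with detection as well. Of the genes tested in RNA-seq, 0.76% to 1.36% in the lowest quartile of mean log2 CPM had a 3′ UTR peak in a given list, and 12.1% to 14.7% in the highest quartile did. The median level was 5.19 log2 CPM for genes called in 1 list, 5.61 in 2, 6.09 in 3 and 6.72 in 4, against 4.09 for all tested genes. The part of the level in the sharing was not tested.

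The fold enrichment of a region is that of its strongest peak in a list. The strongest regions called in all 4 lists were ranked by the lowest percentile that their fold enrichment reached among the 3′ UTR peaks of a list. *CREB1*, a transcription factor of the cAMP pathway, led with a region at chr2:207596939-207597357 (hg38, plus strand) and fold enrichments of 168 in HSC3 control, 209 in HSC3 rapamycin, 815 in CAL33 control and 491 in CAL33 rapamycin. Its lowest percentile was 85.6. *DDX23*, an RNA helicase of the spliceosome, followed at chr12:48829854-48830303 (minus strand) with 892, 122, 2190 and 238 in the same order. Both control values of *DDX23* were above both rapamycin values. *SIN3A*, the scaffold of a histone deacetylase corepressor complex (chr15:75371414-75371923, minus strand), had 363, 106, 187 and 142. *JUN*, a subunit of the AP-1 transcription factor (chr1:58781628-58782378, minus strand), had 460, 231, 160 and 421. *FOXK2*, a forkhead factor (chr17:82601441-82602458, plus strand), had 112, 500, 672 and 213. The control and rapamycin values of *SIN3A* did not overlap, and those of *JUN* and *FOXK2* did.

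*GEN1*, a nuclease that resolves Holliday junctions (chr2:17783851-17784241, plus strand), had 1700, 62.9, 894 and 348. *ATXN7L3*, of the deubiquitinating module of the SAGA complex (chr17:44193871-44194260, minus strand), had 115, 61.5, 243 and 96.5. *AFF1*, a scaffold of the super elongation complex (chr4:87135718-87136108, plus strand), had 81.9, 65.6, 234 and 58.1. In each of these 3 genes both control values were above both rapamycin values. The lists were not put on a common scale here, and no difference in these 10 regions passed the test described next. Of all 88 3′ UTR regions in that test, 32 were lower and 18 higher with rapamycin in both lines on these uncentred values. The median log2 change over the 88 was -0.35 in HSC3 and -0.75 in CAL33. How many of the 88 separated the treatments fully was not counted. *TMEM250* (chr9:136115921-136116547, minus strand) had 58.9, 129, 213 and 193. *NCBP2-AS2*, which is named as an antisense gene of *NCBP2* (chr3:196943067-196943540, plus strand), had 105, 263, 145 and 55.3. In these last 2 genes the treatments overlapped.

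**Figure D3:**
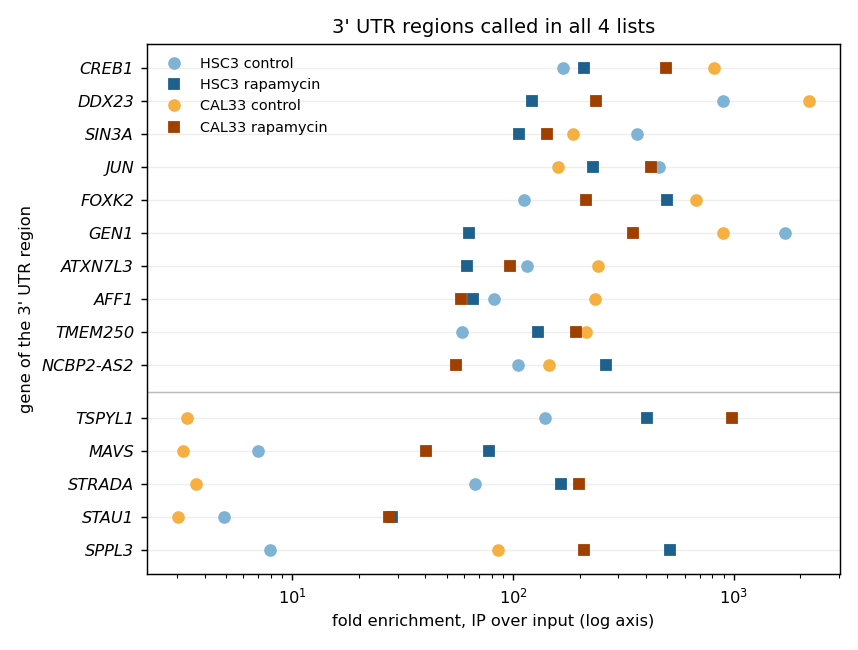
Fold enrichment (log axis) of 15 3′ UTR regions in each of the 4 lists, 1 point per list, circles for control and squares for rapamycin. The upper 10 genes are the strongest regions called in all 4 lists, and the lower 5 are the regions with the smallest unadjusted p for treatment, in which each control value lies below both rapamycin values.

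Rapamycin was compared with control in the 331 regions of any class that had a peak in every list, of which 88 were annotated as 3′ UTR in all 4. The fit used limma on log2 fold enrichment, centred on each list's median, with the cell line as a block. No region passed an adjusted p of 0.05 (limma, 0% of 331, and the smallest adjusted p was 0.646). At an unadjusted p under 0.05 there were 9 of the 88 3′ UTR regions (10.2%), against 6.95% of all 331. Of these 9, 7 were higher with rapamycin. Without the centring there were 4, and 1 of them was higher, so the direction depends on the scaling of the lists. Over the 88 regions the median difference was -0.16 (log2, rapamycin minus control), 40 were higher and 48 lower, and the median size of a difference was 1.28 with a median standard error of 1.74. In 50 of the 88 the difference had the same direction in both lines, 32 of them lower and 18 higher with rapamycin, on the uncentred values. Between HSC3 and CAL33 no region passed either (limma, smallest adjusted p 0.223), and 5 of the 88 had an unadjusted p under 0.05 against 4.83% of all 331. The median size of the difference between lines was 1.40 in log2 units.

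The 5 3′ UTR regions with the smallest p for treatment were all higher with rapamycin in both lines. *TSPYL1* (chr6:116277896-116278465, minus strand) had fold enrichments of 140 and 405 in HSC3 control and rapamycin, and of 3.33 and 983 in CAL33. Its difference was 5.06 ± 1.88 (log2, limma standard error, unadjusted p = 0.0076). *MAVS*, the mitochondrial adaptor of antiviral RNA sensing (chr20:3873607-3873967, plus strand), had 7.01 and 77.9 in HSC3 and 3.19 and 40.2 in CAL33. Outside this region, *MAVS* had a stronger 3′ UTR peak in HSC3 rapamycin (134) and in CAL33 control (83). By the strongest 3′ UTR peak of the gene, *MAVS* was thus lower with rapamycin in CAL33. *STRADA*, a pseudokinase that activates the kinase LKB1 upstream of AMPK (chr17:63703414-63703684, minus strand), had 67.3 and 164, and 3.65 and 199. The 164 belongs to a peak annotated to the overlapping gene *AC046185.1* on the same strand, and the *STRADA* peak of that list had 130. *STAU1*, a double-stranded RNA-binding protein of mRNA transport and decay (chr20:49114385-49114863, minus strand), had 4.91 and 28.3, and 3.04 and 27.5. *SPPL3*, an intramembrane protease (chr12:120764544-120764933, minus strand), had 7.90 and 513, and 85.1 and 210. The CAL33 control values of the *TSPYL1*, *MAVS*, *STRADA* and *STAU1* regions were among the lowest of that list, at percentiles between 2.01 and 3.43. All 5 had a limma adjusted p of 0.646.

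Other genes had a 3′ UTR peak under one treatment in both lines and no peak of any class under the other. There were 60 such genes with rapamycin and 78 in controls. Counted by 3′ UTR peaks alone, 88 of the 2908 genes were called in both rapamycin lists only and 103 in both control lists only. The list pairs that share neither line nor treatment held as many, with 120 genes (HSC3 rapamycin with CAL33 control) and 84 (HSC3 control with CAL33 rapamycin). The counts alone thus do not set the treatments apart. With rapamycin the first by the smaller of the 2 values were *TESK1*, a kinase of cofilin, and *CD72*, a receptor of B cells. These 2 genes held the same signal, since their peaks lay on opposite strands of one place (chr9:35609713-35610042 for *CD72* in HSC3) with 145 in HSC3 and 139 in CAL33 for both. The mRNA counted for *CD72*, 0.37 and 0.21 CPM in controls and 3.58 and 1.54 with rapamycin, rose with the block (edgeR adjusted p = 0.0076), and without a stated strand setting its reads cannot be told apart from those of *TESK1*. Next came *DCLK2*, a doublecortin-like kinase, with fold enrichments of 150 in HSC3 and 93.8 in CAL33 over one overlapping region, and *CDKN2B*, a cyclin-dependent kinase inhibitor, with 172 and 91.1. In *CDKN2B* a weaker HSC3 peak of 51.9 was the one that overlapped the CAL33 peak. In controls alone the first were *CCDC50* with 521 in HSC3 and 421 in CAL33, *STX6*, a syntaxin of membrane fusion, with 224 and 281 (in HSC3 a weaker peak of 123 overlapped that of CAL33), *DEXI* with 185 and 157, and *SAMD12* with 129 and 309. The peaks of *CCDC50* in HSC3 and CAL33 did not overlap, and the *DEXI* peak lay opposite a 3′ UTR peak of *CIITA* on the other strand.

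The same was done for the cell lines, again with no peak of any class in the other line. By 3′ UTR peaks alone, 142 genes were called in both HSC3 lists only and 96 in both CAL33 lists only. In both HSC3 lists and in no CAL33 list there were 109 genes, led by *FZD7*, a Wnt receptor (264 and 413 in control and rapamycin), *MECR*, an enzyme of mitochondrial fatty acid synthesis (174 and 183), and *ELFN2* (213 and 142). In both CAL33 lists and in no HSC3 list there were 66, led by *CEBPA*, a transcription factor of differentiation (226 and 343), *SH3TC2* (179 and 174) and *KIAA1257* (230 and 155). The mRNA of these genes bears on the numbering of the RNA-seq libraries. Of the HSC3 genes, 107 were tested, and their median difference between the number 1 and the number 2 libraries was 0.50 in log2 CPM, with 27.1% more than 2-fold higher in number 1 and 2.80% more than 2-fold higher in number 2. Of the CAL33 genes, 63 were tested, with a median of -0.18, 9.52% more than 2-fold higher in number 1 and 27.0% in number 2. Over all tested genes the median was 0.03, with 19.8% and 15.4%. *CEBPA*, for example, had 4.00 and 1.80 CPM in the number 1 libraries (rapamycin, control) and 32.3 and 20.2 CPM in the number 2 libraries. The other named CAL33 genes did not follow it. *SH3TC2* had 4.36 and 15.1 CPM in number 1 and 15.4 and 11.8 in number 2, without a common direction. *KIAA1257* was higher in number 1, with 0.79 and 0.42 CPM against 0.55 and 0.08. By the medians and shares of these gene sets, the number 1 libraries stood nearer to the HSC3 peaks and the number 2 libraries nearer to the CAL33 peaks. That is the numbering of MeRIP-seq and not the cell line label of the RNA-seq.

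To relate 3′ UTR peaks to mRNA, 15826 genes were tested for rapamycin against control, among them 2751 of the 2908 genes with a 3′ UTR peak. Without the block, edgeR called 0 of 15826 genes at an adjusted p of 0.05 (0%), with 446 at an unadjusted p under 0.05. Of the 2751 genes, 0 were called and 119 (4.33%) had an unadjusted p under 0.05, and DESeq2 called 8 (6 higher, 2 lower) of the 36 it called among all tested genes (0.23%). With the replicate number as a block, edgeR called 1290 genes (8.15%), 736 higher (4.65%) and 554 lower (3.5%) with rapamycin. Of the genes with a 3′ UTR peak it then called 310 (11.3%), 165 higher (6.0%) and 145 lower (5.27%). Their mRNA level was also above that of all tested genes (median 5.47 against 4.09 log2 CPM), and its part in the larger share of calls was not tested. The median log2 fold change was -0.05 for these genes and 0.06 for all tested genes without the block, and its sign turned to 0.03 under upper-quartile normalization, where the median of all genes moved to 0.13.

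By the number of lists, the median log2 fold change without the block was -0.02 for the 1687 tested genes called in 1 list, -0.06 for 607 in 2, -0.12 for 307 in 3 and -0.17 for 150 in 4. The share called with the block was 10.6%, 10.2%, 14.7% and 16.7%. In 4 lists, 13 genes were higher and 12 lower. Genes with CDS peaks and no 3′ UTR peak had a median of -0.11 and the 10222 tested genes with no peak 0.12, so a lower median was not found in 3′ UTR genes alone.

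Genes whose 3′ UTR peaks were lost with rapamycin in both lines numbered 196, and genes with peaks gained in both lines 168, with 17 genes in both sets. A lost peak is a control peak that overlaps no rapamycin peak of the same line. Of 188 tested genes with lost peaks, the median log2 fold change was -0.20, and 96 (51.1%) were lower in both numbered pairs against 32.0% of all tested genes. With the block, 18 were lower (9.57%, against 3.5% of all genes) and 8 higher (4.26%, against 4.65%). Genes with a 3′ UTR peak in 3 and in 4 lists, not chosen for loss, came near these values. Of them 45.3% and 48.7% were lower in both pairs, and 8.79% and 8% were called lower with the block. Their median log2 fold changes were -0.12 and -0.17. A stricter set held the 73 tested genes with a 3′ UTR peak in both control lists and no peak with rapamycin. With the block, 3 of them were higher and 3 lower (4.11% each), so the larger share of called falls was not seen there. The median log2 fold change of the stricter set was -0.17, and 36 (49.3%) were lower in both numbered pairs. Of 162 tested genes with gained peaks, the median was 0.04, 34.6% were lower in both pairs, and with the block 16 were higher (9.88%) and 7 lower (4.32%). Without the block edgeR called 0 genes in either set, with 12 and 9 at an unadjusted p under 0.05, and DESeq2 called 1 and 0. The median of the gained set was -0.20 without the rapamycin library number 2 and 0.15 without the control library number 2. In bulk samples, a peak missed at a lower mRNA level and a loss of m6A cannot be told apart.

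Among the 93 tested genes with a 3′ UTR region in all 4 lists, 15 were called with the block (16.1%, against 8.15% of all tested genes), 10 higher and 5 lower (4.65% and 3.5% of all). Without it edgeR called 0, with 7 at an unadjusted p under 0.05 (7.53%, against 2.82% of all). The median level of these genes was 6.74 log2 CPM against 4.09 for all tested genes, and its part in the counts was not tested. The 4 largest rises were taken among genes that passed with the block and moved in the same direction in both numbered pairs. *KLF13*, a Krüppel-like transcription factor, had 34.1 and 6.25 CPM in control libraries 1 and 2 and 108 and 23.3 in rapamycin libraries 1 and 2 (log2 fold change 1.77 ± 0.29, SE, edgeR adjusted p = 0.00095). *JUNB*, an AP-1 subunit, had 86.9 and 81.0 in controls and 238 and 327 with rapamycin (1.73 ± 0.27, edgeR adjusted p = 0.00047). *IER3*, an immediate-early gene of cell survival, had 185 and 42.5 against 407 and 174 (1.58 ± 0.28, edgeR adjusted p = 0.0016). *PRSS8*, the epithelial serine protease prostasin, had 61.4 and 39.0 against 140 and 142 (1.52 ± 0.27, edgeR adjusted p = 0.0014). The groups did not overlap in *JUNB* and *PRSS8*, while in *KLF13* and *IER3* control library 1 was above rapamycin library 2. An exon peak of a gene on the opposite strand overlapped the *PRSS8* peaks in all 4 lists.

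The 4 largest falls were chosen in the same way. *FEN1*, the flap endonuclease of DNA replication, had 276 and 174 CPM in controls 1 and 2 and 146 and 43.9 with rapamycin (-1.45 ± 0.29, edgeR adjusted p = 0.0039). *MRPL27*, a protein of the mitochondrial ribosome, had 60.3 and 33.0 against 26.1 and 12.9 (-1.28 ± 0.30, edgeR adjusted p = 0.0093). *TARDBP*, which encodes the RNA-binding protein TDP-43, had 113 and 107 against 43.1 and 55.0 (-1.17 ± 0.27, edgeR adjusted p = 0.0073). *DDX23* had 266 and 251 against 119 and 124 (-1.09 ± 0.26, edgeR adjusted p = 0.0097). In all 4 genes both controls were above both rapamycin libraries. The choice required a fall within both numbered pairs and so favours this separation. In *DDX23* the fold enrichment of the 3′ UTR region was also lower with rapamycin in both lines, as given above, although not past the limma test (unadjusted p = 0.057). In *FEN1* it was 3.74 and 8.98 in HSC3 and 3.67 and 32.2 in CAL33, higher with rapamycin in both. In *TARDBP* it was 127 and 49.2, and 53.9 and 17.1, lower in both. In *PRSS8* it was 75.1 and 15.0, and 349 and 58.9, lower in both, and in *MRPL27* 9.49 and 10.4, and 426 and 21.4, without a common direction. The direction of the region and that of the mRNA thus went together in *DDX23* and *TARDBP* and apart in *FEN1* and *PRSS8*. In *KLF13* it was 3150 and 23.9, and 17.0 and 55.1, and there, as in *JUNB*, *IER3* and *MRPL27*, the lines differed in the direction of the region.

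**Figure D4:**
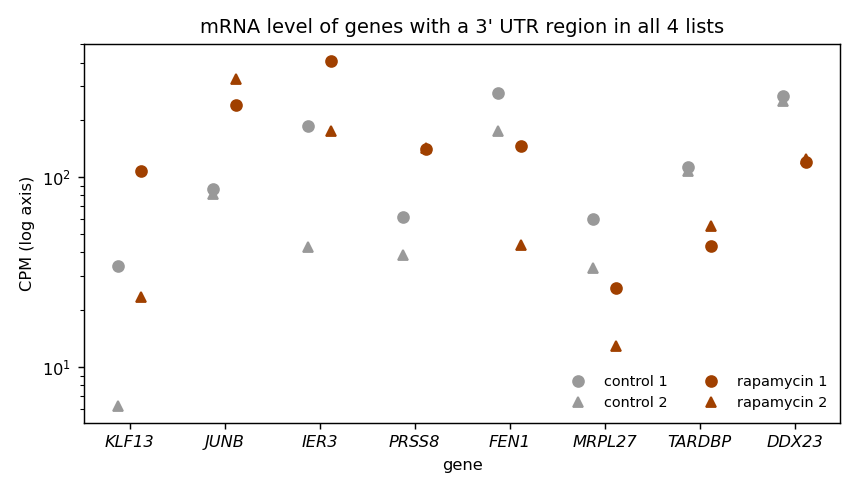
Level of mRNA in CPM (log axis) for 8 genes with a 3′ UTR region in all 4 lists, 1 point per RNA-seq library, with circles for number 1 and triangles for number 2. The 4 genes on the left were higher and the 4 on the right lower with rapamycin within both numbered pairs, and the pairs themselves lie far apart in *KLF13* and *IER3*.

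*EIF4G1* encodes the scaffold of the translation initiation complex eIF4F, and is the target the study followed up. It carried a 3′ UTR peak in the HSC3 lists alone, with a fold enrichment of 3.68 in control cells (chr3:184334820-184335059, plus strand, percentile 3.96 among the 3′ UTR peaks of that list) and of 32.5 with rapamycin (chr3:184334760-184335208, percentile 46.3). The peak was thus among the weakest in HSC3 control cells and near the middle with rapamycin. A CDS peak of *EIF4G1* was present in all 4 lists. The m6A site that the paper followed up lies in the CDS by its account, not in the 3′ UTR. Its mRNA was 1548 and 2032 CPM in controls 1 and 2 and 957 and 1019 with rapamycin. It fell by 0.84 ± 0.26 (log2, SE) in the fit with the block (edgeR adjusted p = 0.047). Without the block the log2 fold change was much the same, -0.86 ± 0.32 (edgeR unadjusted p = 0.055), but did not pass (edgeR adjusted p = 0.9997).

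The genes that handle m6A carried CDS peaks more often than 3′ UTR peaks. Of 21 writers, erasers and readers, all tested, 3 had a 3′ UTR peak in some list (14.3%, against 17.4% of all tested genes) and 13 a CDS peak (61.9%, against 16.4%). The median level of these genes was 6.41 log2 CPM against 4.09 for all tested genes, and its part in these shares was not tested. The exceptions in the 3′ UTR were *IGF2BP2*, a reader that stabilises its targets, with 242 in HSC3 rapamycin, 894 in CAL33 control and 226 in CAL33 rapamycin, *ZC3H13*, a subunit of the writer complex, with 40.9 and 24.1 in CAL33 control and rapamycin, and *YTHDF1*, a cytoplasmic reader, with 21.9 in HSC3 rapamycin. *IGF2BP2* mRNA was 140 and 120 CPM in controls and 235 and 246 with rapamycin, and rose by 0.89 ± 0.26 with the block (edgeR adjusted p = 0.032). *ALKBH5*, an eraser without a 3′ UTR peak, had 138 and 119 against 58.8 and 75.8 and fell by 0.94 ± 0.26 with the block (edgeR adjusted p = 0.027). *METTL14* had 19.2 and 20.9 CPM in controls and 20.1 and 19.3 with rapamycin, and no 3′ UTR peak. *METTL3* had 57.4 and 36.7 against 43.2 and 35.9, *FTO* 45.0 and 60.8 against 51.5 and 72.4, and *YTHDF2*, a reader that promotes decay, 86.7 and 90.8 against 86.2 and 75.9, each without a 3′ UTR peak. The groups overlapped in *METTL14*, *METTL3* and *FTO*, while both *YTHDF2* controls were above both rapamycin libraries without passing the test. The other 13 genes (*WTAP*, *VIRMA*, *RBM15*, *RBM15B*, *CBLL1*, *METTL16*, *YTHDF3*, *YTHDC1*, *YTHDC2*, *IGF2BP1*, *IGF2BP3*, *HNRNPA2B1*, *HNRNPC*) had no 3′ UTR peak.

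Of the gene lists, the immediate-early and short-lived mRNAs carried 3′ UTR peaks most often. These messages encode transcription factors and feedback regulators that are rapidly made and destroyed. Of 29 tested, 20 (69.0%) had a 3′ UTR peak in some list, 6 in all 4, and 20 a CDS peak. With the block 14 were higher and 0 lower, against 4.65% and 3.5% of all tested genes, and 8 of the 14 had a 3′ UTR peak. In both numbered pairs 25 were higher, against 34.6% of all tested genes. The list's median level was 6.10 log2 CPM against 4.09 for all tested genes, and its part in these counts was not tested. The median log2 fold change was 1.20 without the block, where edgeR called 0. The 6 called in all lists, by their highest peak in HSC3 control, HSC3 rapamycin, CAL33 control and CAL33 rapamycin, were led by *JUN*. *IER2* had 544, 62.8, 166 and 42.9, and its mRNA rose by 0.92 ± 0.26 with the block (edgeR adjusted p = 0.029). *FOSL2*, an AP-1 subunit, had 112, 96.7, 34.0 and 22.3, *JUNB* 22.4, 16.6, 17.0 and 60.2, and *IER3* 37.0, 104, 94.0 and 19.8. *ZFP36L2*, which binds AU-rich elements and promotes decay, had 1080, 8.91, 149 and 114. No 2 of these 6 genes ranked the lists in the same order.

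Lineage and signalling lists followed. Median levels were 5.81 log2 CPM for the squamous lineage factors and 5.95 for the autophagy genes, against 4.09 for all tested genes. The part of the level in the shares with peaks was not tested. Of 16 tested transcription factors of the squamous lineage, 8 (50%) had a 3′ UTR peak. *PITX1* was the member called in all 4 lists, with 572, 465, 7.53 and 125. *SOX2*, a lineage factor of squamous tumours, had 3′ UTR peaks in CAL33 alone (132 in control and 18.1 with rapamycin), and its mRNA was 0.053 and 0.139 CPM in rapamycin and control number 1 and 151 and 87.7 in number 2. A CDS peak of *SOX2* was called in HSC3 control as well as in both CAL33 lists. *KLF4*, a factor of epithelial differentiation, had a peak in HSC3 rapamycin (169), and its mRNA rose by 1.59 ± 0.27 with the block (edgeR adjusted p = 0.0013). Of 35 autophagy genes, 12 (34.3%) had a 3′ UTR peak and none in all 4 lists, with 3, 10, 5 and 3 genes in HSC3 control, HSC3 rapamycin, CAL33 control and CAL33 rapamycin. *ULK1*, the kinase that starts autophagy and is a target of mTORC1, had 51.9 in HSC3 rapamycin, 238 in CAL33 control and 17.9 in CAL33 rapamycin. Its mRNA was 44.5 and 53.1 CPM in controls and 213 and 137 with rapamycin, a rise of 1.81 ± 0.28 with the block (edgeR adjusted p = 0.00048). In all, 6 of the 35 were higher and 0 lower with the block, against 4.65% and 3.5% of all tested genes, and 1 of the 6 (*ULK1*) had a 3′ UTR peak. *WIPI2*, *ATG4B*, *ATG2B*, *ATG4A* and *AMBRA1* also had 3′ UTR peaks, in 2 or 3 lists each, and did not pass.

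Of 21 genes of mTOR signalling and translation initiation, 5 had a 3′ UTR peak. *RPS6KB1*, the S6 kinase, had 82.2 and 54.3 in the HSC3 and CAL33 controls and none with rapamycin, *RPTOR* 13.7 in HSC3 rapamycin and 17.0 in CAL33 control, *MTOR* 68.7 in HSC3 control and *TSC1* 14.3 in CAL33 control. With the block 1 of the 21 was higher and 3 lower, against 4.65% and 3.5% of all tested genes. Of 26 genes of TGF-β and SMAD signalling, 7 (26.9%) had one, among them *SMAD3* with 264, 102 and 114 in HSC3 control, CAL33 control and CAL33 rapamycin, whose mRNA rose by 0.93 ± 0.26 with the block (edgeR adjusted p = 0.029). Of 33 histone methylases and demethylases, 7 (21.2%) had a 3′ UTR peak and 18 (54.5%) a CDS peak, at a median level of 6.37 log2 CPM against 4.09 for all tested genes. *KMT2C* was called in all 4 lists, with 56.1, 11.8, 1070 and 40.2.

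Housekeeping lists lay at the other end. Of 78 cytosolic ribosomal protein genes, 8 (10.3%) had a 3′ UTR peak and 0 a CDS peak, although their median level was 8.67 log2 CPM against 4.09 for all genes. *RPL37*, for example, had 72.9 and 7.15 in the HSC3 lists. None of the 78 was called with the block by edgeR. Of 80 nuclear genes of the respiratory chain, 5 (6.25%) had a 3′ UTR peak, with *NDUFS1*, a subunit of complex I, at 11.2 and 30.1 in the HSC3 lists, and 1 was higher and 1 lower with the block, again against 4.65% and 3.5%. Of 392 ZNF zinc finger genes, 91 (23.2%) had a 3′ UTR peak and 162 (41.3%) a CDS peak, at a median level of 3.00 log2 CPM, and with the block 3 were higher and 6 lower, both shares below those of all tested genes (4.65% and 3.5%). *ZNF146* and *ZNF460* were called in all 4 lists, *ZNF146* with 78.3, 56.6, 72.4 and 117.

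**Figure D5:**
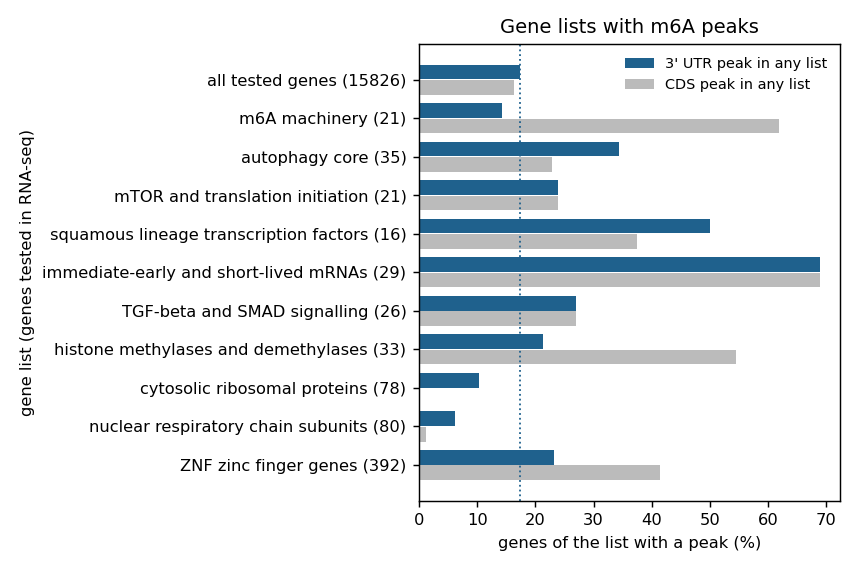
Share of the tested genes of each list (%) with a 3′ UTR peak and with a CDS peak in any of the 4 lists, the number of tested genes in brackets. The dotted line marks all tested genes at 17.4%, which immediate-early genes exceed (69.0%) and ribosomal protein genes do not reach (10.3%).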

How the data were processed

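MeRIP-seq comprised 8 libraries and RNA-seq 4. Per the labels, builds and tools include hg38, cutadapt 2.5, HISAT2 2.1.0, featureCounts 1.6.3 and HOMER 4.10.4, and the peak caller is not given in the sources used here. For each pair of immunoprecipitated library and input, the authors deposited peaks with a fold enrichment (a ratio), log10 p-values and log10 false discovery rates, and a score that repeats the p-value. The depth behind these peaks is unknown. The authors deposited raw RNA-seq counts per gene. The strand setting of that counting is not given in the sources used here.

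Peaks of class 3′ UTR were taken, with positions counted from 1. Peaks were joined by at least 1 bp of exonic overlap on the same strand. Classes were compared by exact sign-flip permutation over 4 lists. Regions in all 4 lists were tested with limma 3.58.1 (trend and robust, cell line as block, spread pooled over all regions). Counts were tested with edgeR 4.0.16 (filterByExpr, TMM, robust quasi-likelihood, Benjamini-Hochberg at 0.05), with DESeq2 1.42.0, the replicate block, other filters and scalings, and each library left out as alternatives. Nothing states that the libraries came from separate cultures, so the spread behind the p-values may be technical. Without the block it is the spread between the libraries of a treatment. With the block it is how far the change with rapamycin differed between the numbered pairs. In limma it is how far that change differed between the lines, pooled over all regions.

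The numbers pair the RNA-seq libraries because the titles share them with MeRIP-seq, where a number marks a cell line. The difference between numbers 1 and 2 correlated between treatments across 15826 genes (r = 0.90). Scripts were tested on simulated data. RefSeq positions (GRCh38.p14) gave distances to gene ends. No 3′ UTR sequence was used here. Named genes follow a rule that takes the strongest, most exclusive, most changed and list members, with up to 6 per gene list and the m6A list in full. Members, lists and rule were chosen with earlier results of these data known. Software ran in R 4.3.3 and Python 3.11.15.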

Additional observations from a re-analysis of the deposited data

Results flagged for a closer look

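The effect of rapamycin on the 3′ UTR peaks had opposite signs in HSC3 and CAL33 for 2 of 4 measures of the lists and 5 of the 15 named regions called in all 4 lists. There is 1 list per line and treatment, so none of these differences was tested. The 15 include the regions with the smallest p for treatment, a choice that favours the same direction in both lines. Of all 88 3′ UTR regions in the limma fit, 50 had the same direction in both lines. The number of 3′ UTR peaks was higher by 22 in HSC3 and lower by 198 in CAL33, a difference of 220 peaks. The log2 change of the median fold enrichment was 0.05 in HSC3 and -0.45 in CAL33, a difference of 0.50. For single regions the difference between the lines in log2 change (HSC3 minus CAL33) was 1.05 for *CREB1*, 3.82 for *FOXK2*, -2.39 for *JUN*, 2.72 for *NCBP2-AS2* and 1.27 for *TMEM250*. The step of the fold enrichment differed between the lists compared (2.81 and 2.74 in HSC3, 2.13 and 2.68 in CAL33), and its part in these differences was not tested.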

How the results depend on the processing

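The higher fold enrichment of 3′ UTR peaks and their less frequent sharing against CDS peaks kept the direction of their mean in every alternative run, including each list left out, but 4 lists cannot reach an exact p under 0.05. Peak counts stayed within 1.5 times under both stricter thresholds. No region was called by limma under any alternative (9 of 88 3′ UTR regions had an unadjusted p under 0.05, and 4 without centring), and with 1 line alone there is no test. Genes with a 3′ UTR peak called by edgeR went from 0 to 310 with the replicate block, those with lost peaks from 0 to 26 and those with gained peaks from 0 to 23. DESeq2 without a block called 8, 1 and 0. The fit with the block has 1 residual degree of freedom, so no library could be left out of it. The median log2 fold change of genes with 3′ UTR peaks was 0.027 under upper-quartile normalization and ranged from -0.15 to -0.049 without 1 library. For lost peaks it was -0.18 with DESeq2, -0.12 with upper-quartile normalization, -0.23 without a filter, -0.17 at 10 counts in every library and -0.18 with an overlap of 50%, and ranged from -0.27 to -0.16 without 1 library. For gained peaks it was 0.12 with upper-quartile normalization and ranged from -0.20 to 0.15. Upper-quartile normalization moved the median of all genes from 0.06 to 0.13. All 17 named genes called with the block kept their direction, except *KDM5B*, which ranged from -0.25 to 1.88 when 1 library was left out. Without the block, leaving out 1 library also moved other log2 fold changes by over 1.5 times. *KLF13* ranged from 0.18 (without rapamycin 1) to 3.33 (without control 1), *IER3* from 0.59 to 2.71 (the same libraries) and *FEN1* from -2.38 (without rapamycin 1) to -0.65 (without rapamycin 2). *IER2* was 0.37 without rapamycin 1, *KLF4* 0.59 and *SMAD3* 0.51 without rapamycin 2, and *MRPL27* -0.82 without control 1. For *KLF13* and *IER3* the values without control 2 were 0.94 and 0.65. The mean in place of the median length, added after the data were seen, kept the direction. The cause of these changes was not tested.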
